A study of Caenorhabditis elegans with 2 samples.

Results

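The genes named rps-0 to rps-30, which encode small ribosomal subunit proteins, were examined in Caenorhabditis elegans for binding of the homeobox protein CEH-100. They were defined by name, so a gene of such a protein with another name falls outside the group. They were picked for study with earlier results of these data known. They are the protein-coding genes with names beginning in rps in the WBcel235 annotation, 31 of 19973 protein-coding genes on the nuclear chromosomes. Peaks came from ChIP-seq, the sequencing of DNA recovered by chromatin immunoprecipitation, on whole young adults, 64 hours old, of strain RW12233. This strain carries ceh-100::TY1::EGFP::3xFLAG, made by CRISPR insertion at the endogenous gene on chromosome II, and an anti-GFP antibody was used for the precipitation. Animals were synchronised as starved L1 larvae after bleaching. All belonged to 1 group of 2 biological replicates, so no comparison between conditions was possible, and whole animals give no information on the tissue in which a site is bound. The tag and the antibody are the same in both replicates, and a strain without the tag was not analysed here.

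The small subunit of the cytoplasmic ribosome, the 40S particle, binds the messenger RNA and reads its codons. Its proteins sit around the ribosomal RNA in a head, which swivels during translocation, and in a body and platform, which carry the decoding centre and the path of the messenger. They are needed in equal amounts, are made by every growing cell, and are among the most highly transcribed protein-coding genes. In C. elegans many transcripts receive a spliced leader in place of their own beginning, so the annotated start of such a gene often marks the splice site, with transcription beginning further upstream.

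A gene was counted as having a start peak when the summit of a peak in the authors' conservative set, the list that requires reproducibility between the replicates, lay within 500 bp of any of its annotated starts. By this rule 19 of the 31 rps genes had a start peak, which is 61.3% (95% Wilson interval 43.8 to 76.3), against 1110 of all 19973 protein-coding genes, 5.56%. The genes with a start peak were rps-1, rps-4, rps-10, rps-11, rps-12, rps-14 to rps-17, rps-19 to rps-24, rps-26 and rps-28 to rps-30. The 12 without were rps-0, rps-2, rps-3, rps-5 to rps-9, rps-13, rps-18, rps-25 and rps-27. No gene had more than 1 start peak, and no peak served more than 1 rps gene, so the 19 genes correspond to 19 distinct peaks. A window of 1000 bp gave 23 genes (7.28% of all genes), but 3 genes had a summit within 200 bp (2.93% of all genes). The genes gained at 1000 bp were rps-6, rps-13, rps-25 and rps-27. Their nearest summits lay 612 to 989 bp after a start, beyond the 3′ end or, at rps-27, just inside it. The wider count thus takes in summits at the 3′ ends of these short genes.

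**Figure D1:**
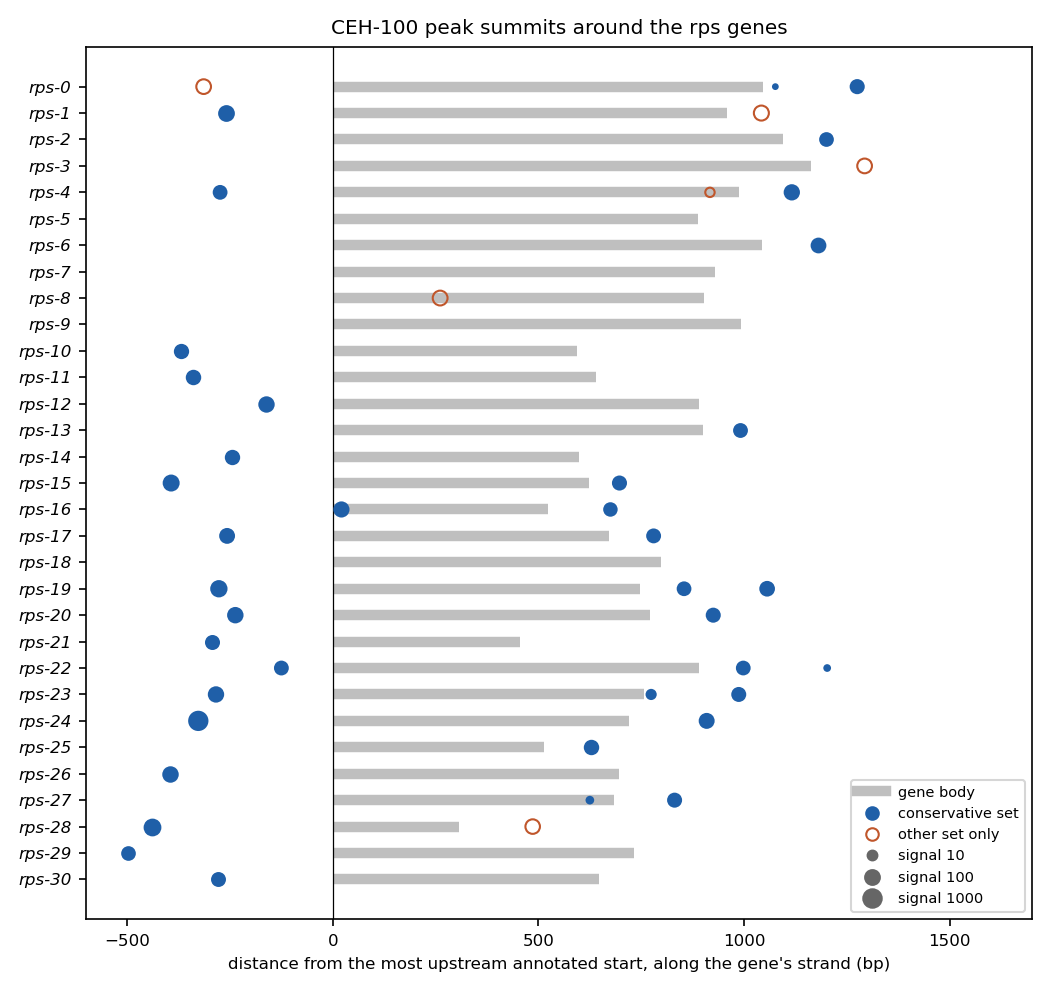
Conservative summits (filled) and summits found only in the authors' other thresholded set (open) around each of the 31 rps genes, by distance in bp from the most upstream annotated start along the strand of the gene, with symbol area growing with log10 of the authors' signal and the grey bar showing the gene. Of the 19 start peaks, 18 lie to the left of the start line, and 15 genes have a summit just to the right of the gene.

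The peak at rps-24 stood apart from the others by its height. The protein is a component of the subunit body, and its human counterpart is one of those altered in Diamond-Blackfan anaemia. The peak signal, which is the authors' enrichment value per peak and has no unit, was 2048 in replicate 1 and 2081 in replicate 2, and 4027 in the joint conservative list, at rank 6 of 1707 conservative peaks. The next highest rps peak, at rps-28, a protein of the head, had 347 in replicate 1 and 318 in replicate 2, with 657 in the joint list. The joint signal at rps-24 was thus 6.12 times that at rps-28, and the replicates did not overlap between these genes. The rps-24 peak was also the broadest of the member peaks, 697 bp, with its summit 327 bp upstream of the start, while that of rps-28 lay 439 bp upstream.

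The 101 bp around the summit are shown for 8 of the start peaks, over a range of signal without the lowest, rps-29. They are shown because these bases are where the immunoprecipitated DNA was centred. Each is the RefSeq genome sequence of WBcel235, read in the direction of the rps gene, and capitals mark the 8-base words GCGAGACC, GCTGCGTA, GCAGCCAA or TACGGTAA, or their reverse complements.
rps-24, chrIV:385510-385610, plus strand: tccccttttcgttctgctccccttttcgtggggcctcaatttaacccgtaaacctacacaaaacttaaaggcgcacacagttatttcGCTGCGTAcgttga
rps-28, chrIV:1659202-1659302, plus strand: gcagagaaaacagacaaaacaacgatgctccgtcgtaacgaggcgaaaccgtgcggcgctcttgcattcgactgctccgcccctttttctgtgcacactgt
rps-1, chrIII:4475609-4475709, plus strand: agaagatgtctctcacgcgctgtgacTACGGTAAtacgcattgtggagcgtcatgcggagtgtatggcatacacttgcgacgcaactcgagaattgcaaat
rps-23, chrIV:12391287-12391387, minus strand: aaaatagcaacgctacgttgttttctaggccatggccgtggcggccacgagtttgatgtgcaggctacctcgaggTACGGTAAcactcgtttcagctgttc
rps-14, chrIII:7179784-7179884, minus strand: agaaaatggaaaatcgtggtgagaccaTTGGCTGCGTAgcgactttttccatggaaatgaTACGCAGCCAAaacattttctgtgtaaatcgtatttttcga
rps-21, chrIII:7189875-7189975, minus strand: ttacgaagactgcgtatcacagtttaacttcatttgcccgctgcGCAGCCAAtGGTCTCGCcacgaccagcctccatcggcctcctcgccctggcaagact
rps-30, chrV:7776249-7776349, plus strand: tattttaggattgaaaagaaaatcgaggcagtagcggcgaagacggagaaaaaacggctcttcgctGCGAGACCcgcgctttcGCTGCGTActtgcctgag
rps-4, chrIV:7084906-7085006, minus strand: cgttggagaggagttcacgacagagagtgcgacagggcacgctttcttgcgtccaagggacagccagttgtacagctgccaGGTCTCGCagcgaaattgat
These words are the 8-mers found, on either strand, in at least 4 of the 19 member windows, and were picked from the same windows, so their frequency is a description and carries no test. GCGAGACC was present at rps-4, rps-11, rps-21, rps-29 and rps-30, in 26.3% of member windows, and in 4.33% of all 1685 nuclear conservative windows. GCTGCGTA was present at rps-10, rps-14, rps-19, rps-24 and rps-30, again 26.3%, and in 1.31% of all windows. GCAGCCAA was present at rps-14, rps-19, rps-21 and rps-22 (21.1%, against 0.593% of all windows), and TACGGTAA at rps-1, rps-10, rps-17 and rps-23 (21.1%, against 1.31%). At least 1 of the 4 words occurred in 13 of 19 member windows, 68.4%, and in 6.88% of all windows. The words are more frequent in the 8 windows shown than in the 19. GCTGCGTA and the reverse complement of GCAGCCAA can overlap, and at rps-14 they do so on each side of the summit, forming TTGGCTGCGTA at base 28 of the window and its reverse complement TACGCAGCCAA at base 61, with 22 bases between the arms. An inverted repeat with arms of 11 or more bases was present in 30 of 1685 windows, 1.78%, and the median longest arm was 6 bases. The homeobox core TAATTA was in none of the 19 member windows and in 1.78% of all windows, and its shorter form ATTA, which TAATTA contains, was in 6 of 19, 31.6%, against 39.5% of all. The G+C content of member windows had a median of 49.5%, against 47.5% over all windows.

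Start peaks were present at 9 of the 13 genes for proteins of the head. Of these rps-28 was highest. Next in the joint list came rps-19, a protein needed for maturation of the small subunit RNA and also altered in human Diamond-Blackfan anaemia, with a signal of 264 in replicate 1 and 218 in replicate 2. At rps-15, whose protein reaches towards the decoding site, the signal was 167 in replicate 1 and 221 in replicate 2, so that rps-15 was above rps-19 in replicate 2. The remaining head genes lay below these in both replicates, and the values of rps-20 overlapped those of rps-12 and the values of rps-16 those of rps-17. For rps-20 the signal was 123 in replicate 1 and 151 in replicate 2, and for rps-12, a protein of the beak, it was 124 in replicate 1 and 146 in replicate 2. The order of rps-20 and rps-12 was not the same in the 2 replicates. For rps-16, whose tail reaches the transfer RNA in the peptidyl site, the signal was 106 in replicate 1 and 123 in replicate 2, and for rps-17 it was 85.4 in replicate 1 and 114 in replicate 2. At rps-10, near the entry of the messenger, it was 63.4 in replicate 1 and 73.3 in replicate 2. The lowest of all members in the joint list and in replicate 1 was rps-29, a zinc-binding protein, with 43.5 in replicate 1 and 59.2 in replicate 2, and a summit 497 bp upstream that lay just inside the window. The head genes without a start peak were rps-3, rps-5, rps-18 and rps-25.

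Start peaks were present at 10 of the 18 genes for proteins of the body and platform. Below rps-24, the highest was rps-1, near the exit of the messenger, with 150 in replicate 1 and 193 in replicate 2. At rps-26, which contacts the messenger upstream of the start codon, the signal was 131 in replicate 1 and 152 in replicate 2. At rps-23, a protein of the decoding centre, it was 96.3 in replicate 1 and 163 in replicate 2, a ratio of 1.70 and the widest gap between replicates among the 19. The other 6 were lower, and all lay below the lowest replicate value of these genes. At rps-11 the signal was 74.3 in replicate 1 and 79.4 in replicate 2, and at rps-14, a platform protein, 61.8 in replicate 1 and 71.5 in replicate 2. At rps-21 it was 61.5 in replicate 1 and 60.1 in replicate 2. Both values of rps-11 were above both of rps-14 and of rps-21. Both values of rps-14 were above both of rps-21, though only narrowly in replicate 1. At rps-30, made as a fusion with a ubiquitin-like protein, it was 60.5 in replicate 1 and 47.8 in replicate 2, and at rps-22 51.6 in replicate 1 and 52.7 in replicate 2. At rps-4 it was 48.0 in replicate 1 and 64.6 in replicate 2, and the values of rps-4, rps-22 and rps-30 overlapped.

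**Figure D2:**
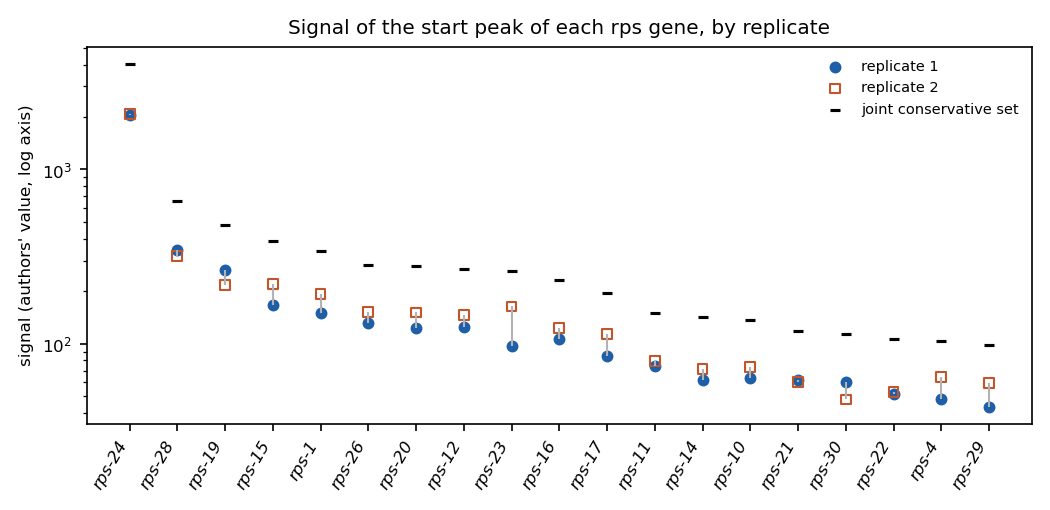
Authors' signal (log axis, no unit) of the start peak of each of the 19 rps genes in replicate 1 (filled circles), replicate 2 (open squares) and the joint conservative list (bars), with genes ordered by joint signal. The rps-24 peak reached 2048 in replicate 1 and 2081 in replicate 2, and no other gene exceeded 347 in replicate 1 or 318 in replicate 2.

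The joint signal of the 19 member peaks had a median of 231, with quartiles of 128 and 312. Over the 943 conservative peaks within 500 bp of any protein-coding start the median was 142, with quartiles of 109 and 250, and 13 of the 19 member peaks exceeded that median. The joint values come from a separate list and are not on the scale of the replicates, in which the member peaks had medians of 96.3 in replicate 1 and 123 in replicate 2. Replicate 2 was higher at 15 of the 19 peaks and replicate 1 at 4, namely rps-19, rps-21, rps-28 and rps-30, and the median ratio of replicate 1 to replicate 2 was 0.863, with a range of 0.589 to 1.27. Spearman's rho between the replicates was 0.958 over the 19 peaks and 0.95 without rps-24, as a description of peaks that share a library in each replicate. Every one of the 19 was in the ranked list of each replicate, with the summit displaced by at most 36 bp. Such presence follows largely from the choice of peaks, since the conservative set requires reproducibility and the ranked lists have no threshold. In the thresholded list of the replicate itself, the peak was present for 15 in replicate 1 and for 17 in replicate 2. By gene rather than by peak, 15 members had a thresholded start peak in replicate 1 (4.15% of all genes) and 19 in replicate 2 (4.89%), and 15 in both, 48.4%, against 3.48% of all genes. The 19 of replicate 2 are not the 19 of the conservative set. They include rps-0 and rps-6 and lack rps-4 and rps-22. The member peaks absent from both thresholded replicate lists were those of rps-4 and rps-22, and those of rps-21 and rps-29 were absent from that of replicate 1.

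Summits lay well upstream of the annotated starts. Of the 31 genes, 18 had a start peak upstream of a start, 58.1%, against 4.83% of all genes, and these 18 summits were in intergenic sequence. All 19 summits together had a median offset of −279 bp and quartiles of −354 and −251.5 bp, where negative values are upstream, and 14 fell between 200 and 400 bp upstream, 73.7%. Taking for every protein-coding gene with a start peak its highest one, 85.9% of 1110 genes had it upstream, the median offset was −175 bp, and 35.6% fell between 200 and 400 bp upstream. The nearest member summits upstream were those of rps-22, at 125 bp, and rps-12, at 162 bp. The exception was rps-16, where the summit lay 21 bp inside the gene, in a coding exon. Its upstream neighbour on the same strand is fib-1, the gene of the nucleolar methyltransferase fibrillarin, which ends 110 bp before the rps-16 start, so that this summit also lay 131 bp beyond the 3′ end of fib-1. The start peak of fib-1 itself was a separate and higher one, with 745 in replicate 1 and 714 in replicate 2.

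**Figure D3:**
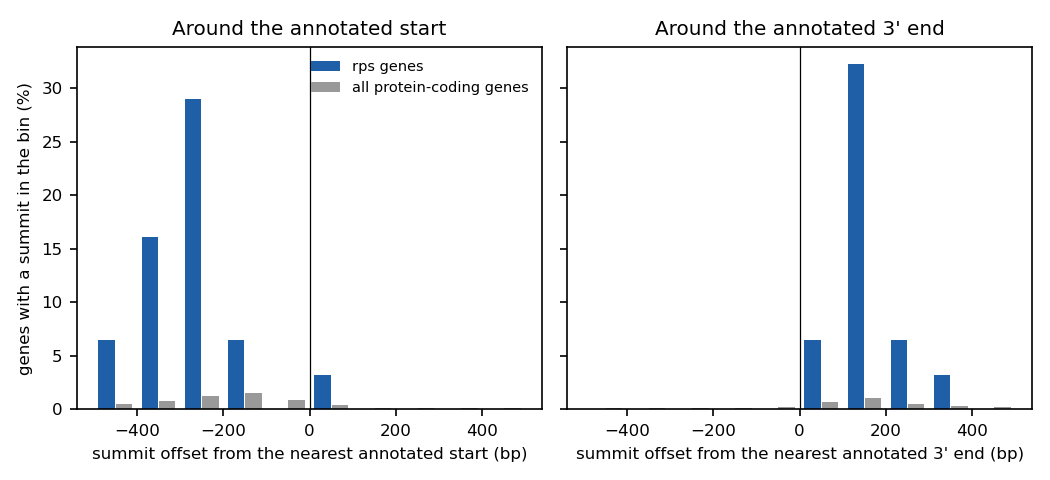
Percentage of the 31 rps genes (blue, left of each pair) and of all 19973 protein-coding genes (grey) whose highest conservative summit lies in each 100 bp bin around the nearest annotated start (left panel) or 3′ end (right panel), negative values being upstream. The rps summits are centred between 200 and 300 bp before the start and between 100 and 200 bp after the 3′ end.

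The bases just before the annotated starts are shown for genes with and without a start peak, because they bear on what the annotated start is. Each run is the 20 bases of the RefSeq WBcel235 genome that precede the most upstream start, on the strand of the gene, and capitals mark a final AG, the letters that end a splice acceptor.
rps-1, chrIII:4475898-4475917, plus strand: ttatgtattcctattttcAG
rps-28, chrIV:1659671-1659690, plus strand: ataatttcaatttctttcAG
rps-9, chrII:11126363-11126382, minus strand: tttctatttatttttttcAG
rps-18, chrIV:14825659-14825678, plus strand: ctaaattttttatttttcAG
rps-24, chrIV:385867-385886, plus strand: aaactacaattcaaatttat
rps-27, chrV:104078-104097, minus strand: tactatttattttctcaatt
An AG stood immediately before the start of 28 of the 31 rps genes, 90.3%, against 27.6% of all protein-coding genes, and TTTCAG, which contains that AG, before 15 of them, 48.4%, against 12.3% of all. The AG was also frequent in related gene groups. It preceded 82.0% of the rpl and rla genes of the large subunit, where TTTCAG was slightly more frequent than at rps genes. It preceded 72.4% of the mrps genes of the mitochondrial small subunit, and 81.0% of genes for partners or assembly factors of the 40S subunit. Start peaks were present at 56%, 10.3% and 38.1% of these groups, in that order. Only the strand of the gene was searched, at that position alone. The 3 rps starts with no AG were those of rps-22, rps-24 and rps-27. Of the 28 genes with the AG, 17 had a start peak. Among all conservative start peaks near a most upstream start, the median offset was −188.5 bp for the 368 whose start follows an AG. It was −94.5 bp for the 494 whose start does not. Of the rps genes with no AG, rps-24 had its summit 327 bp upstream and rps-22 had it 125 bp upstream. Whether the AG has a part in the offset of the rps summits was not tested. The position at which transcription begins was not measured in these data.

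The intergenic position meant that many member peaks could be assigned to a second gene as well. Of the 19 peaks, 11 had a start of another protein-coding gene within 500 bp of the summit, and each such gene was on the opposite strand. Over all 943 start peaks, 253 were shared between genes, 26.8%. In 9 of the 11 the summit was nearer to the neighbour. At rps-26 the summit was 396 bp from the member start and 61 bp from that of tmem-107, the gene of a ciliary transition zone protein. At rps-29 the distances were 497 bp and, for snt-2, a synaptotagmin gene, 70 bp. These peaks lie much closer to the neighbour than to the rps gene. The summit was 162 bp from rps-12 and 131 bp from ska-3, the gene of a kinetochore protein, and 237 bp from rps-20 and 160 bp from ekl-4. It was 277 bp from rps-19 and 168 bp from hsr-9, a gene of the DNA damage response. At rps-23 it was 284 bp from the member and 250 bp from dpm-3, a subunit of a mannosyltransferase. The starts of rps-15 and F36A2.9 were almost equally distant, at 393 and 388 bp. Nearer to the member were the summits between rps-22 and polh-1, a gene of a translesion DNA polymerase, at 125 bp from rps-22 and 141 bp from polh-1, and between rps-14 and rpl-36, at 246 bp from rps-14 and 417 bp from rpl-36.

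In 3 of these pairs the second gene encodes a large subunit protein. They were rps-10 with rpl-24.1, rps-14 with rpl-36 and rps-30 with rpl-39, and their joint signals, 137, 143 and 113, were below the member median of 231. The summit lay 368 bp from rps-10 and 242 bp from rpl-24.1, and 279 bp from rps-30 and 220 bp from rpl-39. When each peak was given only to the nearest protein-coding gene, 10 rps genes retained a start peak. A start of an opposite-strand gene within 1000 bp upstream was present at 19 members, 12 of which had a start peak, and absent at 12, of which 7 had a start peak, among them rps-24 and rps-28. Shares over all genes were not computed for the nearest-gene rule or for this split. At rps-12 and rps-26 a small nucleolar RNA gene also lay within 250 bp of the summit, F54E7.10 at rps-12 and F39B2.14 at rps-26, and its part in the signal was not tested.

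The authors' other thresholded set gave a start peak for 20 rps genes, 64.5% (46.9 to 78.9), against 6.1% of all genes. It lacked the rps-4 peak, and it added rps-0 and rps-8. At rps-0, whose human counterpart is also known as the laminin receptor, the summit lay 314 bp upstream of the start and 59 bp from that of rbg-3 on the opposite strand, with 37.1 in replicate 1 and 57.3 in replicate 2. At rps-8 it lay within a coding exon, 126 bp before a second annotated start, with 53.4 in replicate 1 and 36.8 in replicate 2. Both peaks were weaker in each replicate than most members of the conservative set. In the same set rps-28 had a further summit 180 bp beyond its 3′ end, which is 486 bp from its start because the gene is only 307 bp long.

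Of the 12 genes with no start peak in the conservative set, 8 had a summit in the joint ranked list, which has no threshold, within 500 bp of a start. With the others, 27 of 31 rps genes had such a ranked summit, 87.1%, against 25.5% of all genes, and 27 had a ranked summit in both replicates, against 17.9% of all genes. These were not all the same genes. The gene rps-3 had a summit in the joint ranked list but none in replicate 2. By contrast, rps-18 had none in the joint ranked list but had a ranked summit in each replicate. The global irreproducible discovery rate (IDR), the authors' estimate of how often a peak of that rank fails to recur between replicates, was 0.058 at rps-5 and 0.107 at rps-9 and 0.176 at rps-3, proteins near the path of the messenger. It was 0.621 at rps-2, 0.65 at rps-6, the target of S6 kinase, and 0.798 at rps-7. The thresholded list of replicate 2 alone did hold a start peak at rps-6. No summit of the joint ranked list lay within 500 bp of the starts of rps-13, rps-18, rps-25 and rps-27. The distance from the start to the nearest conservative summit ranged from 612 bp at rps-27 to 101853 bp at rps-7, with 60634 bp at rps-18, 47967 bp at rps-3 and 29837 bp at rps-9. Genes with a start peak had a median length of 697 bp and those without 916.5 bp. A lack of a thresholded peak says that none was called at this depth, which is unknown, and not that the protein was absent.

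Summits also lay beyond the 3′ ends of many rps genes, a feature looked for after the data had been seen. A conservative summit 1 to 500 bp beyond the 3′ end was present at 15 of the 31 genes, 48.4% (32.0 to 65.2), against 2.64% of all protein-coding genes. At a global IDR, the authors' irreproducible discovery rate, of at most 0.001 the count was 6, and the share over all genes at that limit was not computed. The highest summit per gene lay 76 to 309 bp beyond the end, with a median of 137 bp, and 12 of 15 were within 200 bp. Signal was highest at rps-4, with 126 in replicate 1 and 117 in replicate 2. It was 105 in replicate 1 and 97.6 in replicate 2 at rps-24. At rps-6 it was 91.7 in replicate 1 and 99.4 in replicate 2, and the values of rps-6 and rps-24 overlapped. At rps-19 the signal was 91.9 in replicate 1 and 82.1 in replicate 2. Replicates differed most at rps-23, by a ratio of 1.87, with 75.7 in replicate 1 and 40.4 in replicate 2. They also differed at rps-20, with 75.9 in replicate 1 and 45.6 in replicate 2. In both genes replicate 1 was the higher, and the peak was not thresholded in replicate 2. The same direction was seen at rps-25, with 83.5 in replicate 1 and 49.7 in replicate 2, and at rps-27, with 75.6 in replicate 1 and 43.0 in replicate 2. The other 7, at rps-0, rps-2, rps-13, rps-15, rps-16, rps-17 and rps-22, had joint signals of 87.3 to 124. Taking the highest 3′ summit of each gene, the median joint signal was 120 over the 15 genes. It was 130 over the 527 protein-coding genes with a 3′ summit. The peak was thresholded in the list of replicate 1 itself for 12 of the 15, in that of replicate 2 for 12, and in both for 9. A thresholded 3′ summit in both replicates was found at 1.31% of all genes. The authors' other thresholded set had a 3′ summit at 16 rps genes, 51.6%, against 2.91% of all genes.

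A start peak and a 3′ peak were both present at 9 rps genes, namely rps-4, rps-15, rps-16, rps-17, rps-19, rps-20, rps-22, rps-23 and rps-24. The start peak was the higher in 8 of these 9, and at rps-4 the 3′ peak was, with joint signals of 252 beyond the end and 104 before the start. With rps-16 left out, since its start peak is not upstream, 8 genes had both, 25.8%, against 0.606% of all genes. Of the rpl and rla genes of the large subunit, 32.0% had both by the same rule. A start peak alone was found at 10 genes and a 3′ peak alone at 6, which were rps-0, rps-2, rps-6, rps-13, rps-25 and rps-27. Neither was found at rps-3, rps-5, rps-7, rps-8, rps-9 and rps-18, so that 25 of 31 genes had at least 1 peak, 80.6% (63.7 to 90.8), against 7.45% of all genes. Of the 15 highest 3′ summits, 8 were also within 500 bp of the start of another gene. Among these were B0393.8 after rps-0, Y43B11AR.3 after rps-4, T01C3.11 after rps-16, Y105E8A.14 after rps-20, F53A3.7 after rps-22, T07A9.14 after rps-24 and inx-7 after rps-25. The other 7 had no protein-coding start so near. A summit beyond the 3′ end with no start within 500 bp occurred at 8 rps genes, 25.8%, against 1.3% of all genes. These are the 7 and rps-0, through a lower summit with a joint signal of 3.92. Over all protein-coding genes, 527 had a 3′ summit, and 259 had one with no start within 500 bp. The next gene was on the same strand at 9 of the 15 genes with a 3′ peak and at 9 of the 16 without.

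Related gene groups were set beside the small subunit genes. A start peak was present at 28 of the 50 rpl and rla genes of the large subunit, 56% (42.3 to 68.8), and a 3′ peak at 27 of them, 54.0% (40.4 to 67.0), intervals that overlap widely with those of the rps genes. Their highest start peaks were at rpl-35, with 497 in replicate 1 and 507 in replicate 2, rpl-3, with 447 in replicate 1 and 524 in replicate 2, and rpl-15, with 343 in replicate 1 and 443 in replicate 2, all below rps-24. The median joint signal was 231 at rps start peaks and 153 at those of the large subunit, and the median offset was −279 and −264.5 bp. Of the 29 mrps genes, which encode small subunit proteins of the mitochondrial ribosome, 3 had a start peak, 10.3% (3.58 to 26.4), and 1 a 3′ peak. Of 21 genes for partners or assembly factors of the 40S subunit, 8 had a start peak, 38.1% (20.8 to 59.1), led by eif-3.E, with 763 in replicate 1 and 963 in replicate 2, and by fib-1. The 1 gene of that list with a 3′ peak was fib-1, whose 3′ peak is the start peak of rps-16. These shares were not tested against each other, and the intervals cover counting error only.

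**Figure D4:**
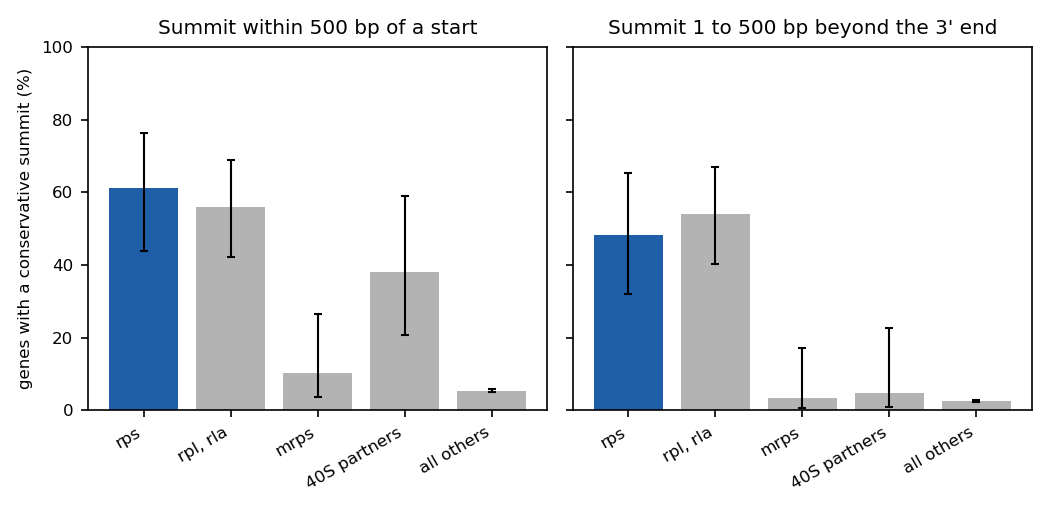
Percentage of genes with a conservative summit within 500 bp of a start (left) or 1 to 500 bp beyond the 3′ end (right) for the rps genes (blue), the large subunit genes, the mitochondrial small subunit genes, the 40S partners and assembly factors and all other protein-coding genes (grey), with 95% Wilson intervals. The rps share is 61.3% on the left and 48.4% on the right, near those of the large subunit genes, 56% and 54.0%.

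By chromosome, a start peak was found at 6 of 8 rps genes on I, 6 of 9 on III, 5 of 10 on IV, 2 of 3 on V and not at the single gene on II, rps-9. Over all protein-coding genes the share with a start peak was 10.1% on I, 5.8% on II, 7.77% on III, 6.31% on IV and 3.72% on V. The X chromosome, where 0.732% of genes had a start peak, holds no rps gene.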

How the data were processed

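Peak lists from 2 biological replicates of anti-GFP ChIP-seq in young adults were used. Per the labels, chromatin was sonicated and the assembly is ce11; aligner and peak caller: not given in the sources used here. The signal of each peak is the authors' enrichment value, deposited without a unit, and its scale differs between lists. Ranked lists also hold −log10 of the global IDR, as deposited. In the joint lists, 16 further per-replicate columns were left aside. Library depth is unknown, since the lists hold no read counts. Annotation was Ensembl release 115 on WBcel235, with sequences from the RefSeq assembly. Summits were assigned to every protein-coding gene with any transcript start within 500 bp; mitochondrial peaks were left out, leaving 1685 of 1707 conservative peaks.

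Replicate signals are those of the ranked peak of each replicate that overlaps the joint peak by at least 1 bp; where joint summits share such a peak, they share its value. Distances run along the strand of the gene. The members, the gene lists and the placement in head or body were chosen with earlier results of these data known. Named genes were every rps gene, every gene with a start within 500 bp of the summit of an rps peak, and up to 3 genes of highest signal in each comparison list; some of these genes are not reported here. No test was made; 95% Wilson intervals of shares cover counting error alone. Alternatives were the other thresholded set, each replicate alone, a global IDR of at most 0.001, other windows, the peak interval, the most upstream start, the nearest gene only and peaks near small RNA genes left out. Software was matplotlib 3.10.9, scipy 1.17.1, pandas 2.3.3 and numpy 2.4.6 under Python 3.11.15. On simulated data 200 of 200 planted summits were recovered.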

Additional observations from a re-analysis of the deposited data

How the results depend on the processing

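Over 7 results and 54 alternatives, 33 values stayed within 1.5 times the count or within the SD of 18.9 between replicate medians, and 21 did not. That SD is on the scale of the replicates, and the joint medians are not. For the median signal the tally is therefore no measure of stability. A window of 200 bp, which by construction drops the summits further upstream, left 3 rps genes with a start peak, 2 upstream and 2 shared, with 4 genes in the other thresholded set and 2 in both replicates. A window of 1000 bp gave 22 shared peaks and a median signal of 129, but it also took in summits beyond the 3′ ends of these short genes. Giving each peak to the nearest gene only left 10 genes, 9 of them upstream, with 10 in the other set and 8 in both replicates, and a median signal of 173. The median signal was also 173 with peak intervals, 194 in the other set and without peaks near small RNA genes, and 269 at a global IDR of at most 0.001. Leaving out either replicate gave a median of 123, on the scale of the remaining replicate. Any ranked peak in both replicates was present at 27 genes. The 3′ alternatives were chosen after seeing the data. The 15 genes with a 3′ peak became 6 at a global IDR of at most 0.001 and 8 without peaks at the start of another gene. The number of genes with a start peak was 15 to 19 with either replicate alone, 20 in the other set and 15 at a global IDR of at most 0.001. The genes of replicate 2 alone were not all those of the conservative set. Shares over all genes were not computed for the IDR limit or for the nearest-gene rule. No paired analysis was possible because there is 1 group and no comparison between groups. Unknown read depth limits every call of no peak, and signal cannot be adjusted for it.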
